A study of Mus musculus with 48 samples.

Results

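Chemokines and chemokine receptors were followed in the livers of WT mice and of 2 mutant lines, each fed a control diet (CTRL) or a high-fat diet (HFD). A probe was taken when its gene name on the array began with Ccl, Cxcl, Ccr or Cxcr directly followed by a digit, or was Cx3cl1, Cx3cr1, Xcl1 or Xcr1. The rule used names only and found 76 probes of 55 genes among the 56605 probes of the array. Of these, 55 probes of 41 genes were bright enough to be tested, among 33323 tested probes in all. All animals were male C57Bl6J mice, 20 weeks old, housed at thermoneutrality, with 8 mice and 8 arrays in each of the 6 groups. The labels give 12 weeks of diet and 60% of fat in the HFD, and the study's text gives a shorter diet. PPARaLKO mice (Pparα hep-/-) carry floxed Pparα alleles and a Cre recombinase driven by the albumin promoter, which deletes the gene in hepatocytes. PPARaKO mice (Pparα-/-) lack it in every cell. The WT mice were bought from a breeder and both mutant lines were bred at the study's own facility, so genotype and origin cannot be told apart.

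Chemokines are small secreted proteins that draw leukocytes along a gradient through G protein-coupled receptors. The CC and CXC families are named for the spacing of their N-terminal cysteines, and Cx3cl1 and Cxcl16 are also made as membrane-bound forms. In the liver, Ccl2 and its receptor Ccr2 bring in blood monocytes, Cxcl1 and Cxcl5 call neutrophils through Cxcr2, and Cxcl9 and Cxcl10 call T cells through Cxcr3. Ccl19, Ccl25, Ccl27a, Cxcl12 and Cxcl14 are made without inflammation in several tissues and are often called homeostatic. PPARα is a nuclear receptor for fatty acids that drives lipid oxidation in hepatocytes and can restrain inflammatory transcription.

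Median intensities of the 48 arrays ranged from 56 to 91 against local backgrounds of 20 to 36, and 0 spots were saturated. The precision rests on the number of mice, since an array has no read depth. The 8 tested hepatocyte markers lay between 12.64 and 18.93 on the log2 scale in every mouse. Both Ppara probes were lower in PPARaKO than in WT mice, by log2 differences of -0.65 and -1.11 on the CTRL diet and -1.08 and -1.29 on the HFD. In PPARaLKO mice the differences from WT were -0.42 and -0.10 on the CTRL diet, of which the latter was not called, and -0.85 and -0.68 on the HFD. Array weights, which lower the influence of arrays that deviate from their group over all probes, ran from 0.189 to 2.53. The lowest were those of PPARaLKO CTRL replicate 1 (0.189) and WT CTRL replicate 6 (0.208). Levels below are log2 intensities after quantile normalization, differences are fitted log2 changes, and a probe counts as called where its p, adjusted over all tested probes, does not exceed 0.05.

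A few sequences show what the probes and promoters of these genes hold. The 2 brightest Ccl27a probes, A_55_P2068734 at chr4:41716345-41716404 and A_55_P2068723 at chr4:41716357-41716416 (mm9), overlap over 48 bases, so they are nearly a repeated measurement. Capitals mark bases within that overlap. The 30 bases shown are the last of the first probe and the first of the second, which hold opposite ends of the overlap, so the 2 runs of capitals are different stretches.
Ccl27a A_55_P2068734: CTAATAAAGCAACATTAGacgacaatctcc
Ccl27a A_55_P2068723: ggtactacaaaaGAAAATGTACTCAAACCC
A pair of Ccl25 probes gave opposite results, and the first 30 bases of each are shown because they read different places, chr8:4359916-4359975 and chr8:4327833-4327892 (mm9).
Ccl25 A_51_P161265: gaggaacgagaggatagtgagtgtgtgaga
Ccl25 A_55_P2027852: aggcagaaggaaaatcaagtgggttccatc
The brighter Cxcl11 probe, A_55_P2160387 at chr5:92788567-92788626, shares a run of at least 20 bases with probes of 8 other gene names, in capitals here.
Cxcl11 A_55_P2160387: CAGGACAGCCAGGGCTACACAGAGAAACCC
The level of this probe, 17.86 on average, can therefore not be assigned to Cxcl11 alone. In all, 3 of 76 member probes shared such a run with a probe of another gene name, the others being the weaker Cxcl11 probe and the Ccl27a probe A_55_P2070576. Ccl27a and Ccl21a also have near-identical gene copies in the mouse, so their signal may come from more than 1 copy.

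Promoters were read from RefSeq (GRCm38.p6, 250 bases before to 50 bases after each gene start), where 40 of the 55 genes had an entry. The kappa B motif, searched as GGGANNTTCC on both strands, was held by 482 of 32851 promoters (1.47%) and by those of Ccl1, Ccr3, Cxcl1, Cxcl10, Cxcl2 and Cxcl3. An interferon response motif, searched as GAAANNGAAA on both strands, was held by 3.44% of promoters and by those of Ccl19, Cxcl10 and Cxcl14. A direct repeat of the kind PPARα binds, AGGTCANAGGTCA, was in 13 promoters (0.0396%) and in 0 of the 40. The 250 bases before the starts of Cxcl1 (chr5:90890995-90891244, plus strand) and Cxcl10 (chr5:92348890-92349139, minus strand) are shown because both genes rose on the HFD in a mutant line and hold a kappa B match. Capitals mark the matches, which in Cxcl1 are 2 overlapping ones on opposite strands, and the upstream match in Cxcl10 is to the interferon motif.
Cxcl1 promoter: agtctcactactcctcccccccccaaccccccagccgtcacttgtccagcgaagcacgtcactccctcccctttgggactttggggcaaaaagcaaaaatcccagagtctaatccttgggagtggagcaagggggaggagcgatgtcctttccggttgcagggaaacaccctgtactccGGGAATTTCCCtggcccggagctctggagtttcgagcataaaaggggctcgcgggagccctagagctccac
Cxcl10 promoter: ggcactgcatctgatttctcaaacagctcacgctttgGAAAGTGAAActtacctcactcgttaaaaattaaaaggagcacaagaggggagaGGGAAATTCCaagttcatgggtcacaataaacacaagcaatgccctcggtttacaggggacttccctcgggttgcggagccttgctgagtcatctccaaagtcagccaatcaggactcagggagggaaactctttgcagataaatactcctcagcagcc
A match describes letters only.

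The number of chemokine and receptor probes above background varied with the group. Probes that stood well above background in 4 or more of the 8 arrays numbered 37 of 76 in WT mice on either diet. They numbered 44 and 51 in PPARaLKO mice and 41 and 53 in PPARaKO mice on the CTRL diet and HFD. By array, the count ran from 32 to 51 (median 36) in WT CTRL and from 34 to 50 (median 39.5) in WT HFD mice. It ran from 35 to 51 (median 43.5) in PPARaLKO CTRL, 37 to 55 (median 48) in PPARaLKO HFD, 33 to 51 (median 44) in PPARaKO CTRL and 40 to 57 (median 51.5) in PPARaKO HFD mice, so all groups overlapped. Over all spots, the count by array ran from 30956 to 34985 in WT CTRL and from 31985 to 35153 in WT HFD mice. It ran from 31454 to 38217 in PPARaLKO CTRL and from 30654 to 36819 in PPARaLKO HFD mice. In PPARaKO mice it ran from 28234 to 34736 on the CTRL diet and from 31780 to 36437 on the HFD. These ranges overlapped too. Medians over all spots were not computed, so the member counts have no matched share. A probe was tested when at least 1 group passed this filter of 4 arrays. Of the 55 tested probes, 33 passed in all 6 groups, 3 passed in 1 group only, and the others in some groups. Where a probe passed only in the groups where it is high, a difference was built into its choice. Among the called probes this holds for Ccl12 and Cxcl5 (both mutant HFD groups) and Ccr3 (both PPARaKO groups). It holds in part for Ccl3, Ccl7, Cxcr2, Cxcr4 and 1 weaker probe each of Cx3cr1 and Ccl27a, which were called in some comparisons against a group where they failed. All of them stay in the counts of called probes.

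**Figure D1:**
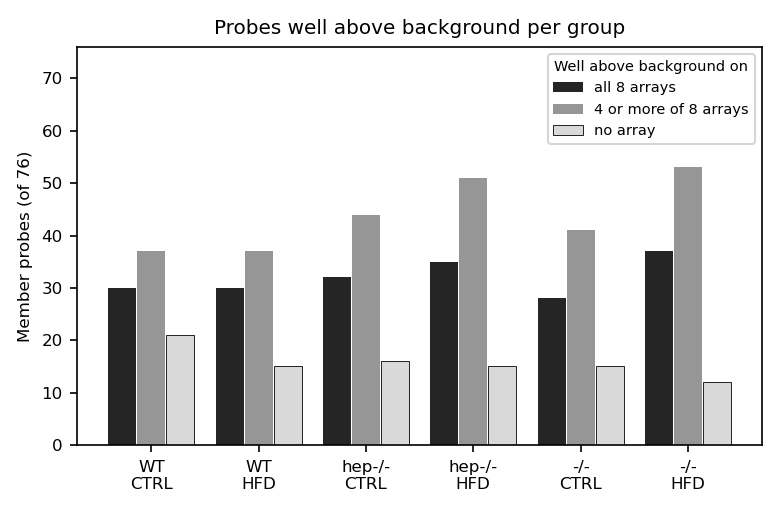
Number of the 76 member probes that were well above background on all 8 arrays, on at least 4 and on none (vertical axis, probes), for the 6 groups (horizontal axis, hep-/- and -/- standing for the Pparα genotypes). The middle bars rise from 37 in both WT groups to 51 in hep-/- HFD and 53 in -/- HFD mice.

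The untested genes were 14, namely Ccl11, Ccl20, Ccl22, Ccl26, Ccl28, Ccr1, Ccr1l1, Ccr4, Cxcl2, Cxcl3, Cxcl15, Cxcl17, Cxcr1 and Xcr1. The brightest of these, the Th17 chemokine Ccl20, was above background on 5 of 48 arrays. A further 11 genes were tested and called in no pairwise comparison: Ccl1, Ccl8, Ccl17, Ccl21a, Ccr7, Ccr8, Ccr10, Cxcl11, Cxcl13, Cxcr5 and Xcl1. Their absence from the calls does not show equal levels. The remaining 30 genes were called at least once, 25 of them at the brightest probe with a change of at least 0.5.

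In WT mice, 0 of 55 chemokine and receptor probes were called on the HFD, although 8.60% of all tested probes were called higher and 10.1% lower by limma. Unadjusted p was under 0.05 for 1 of them, and the smallest adjusted p was 0.142, for Ccl9. In PPARaLKO mice the HFD raised 15 probes of 13 genes, against 9.46% of all probes, and lowered 2 (Ccl9 and Ccl24), against 10.8%. In PPARaKO mice it raised 16 probes of 14 genes, against 12.2% of all probes, and lowered 2 probes of Ccl25, against 12.6%. The raised probes of both lines include Ccl12 and Cxcl5, and those of PPARaKO mice also Ccl3, Ccl7 and Cxcr4, all with a CTRL group that failed the filter. The median change over the tested members was 0.08 in WT, 0.15 in PPARaLKO and 0.26 in PPARaKO mice, beside -0.01, -0.01 and -0.02 over all probes. These counts depend on the array weights: without them 1 probe was called in PPARaLKO (Ccl9, lower) and 8 in PPARaKO mice. With PPARaLKO CTRL replicate 1 and WT CTRL replicate 6 left out and no weights, 9 and 12 were called. The difference in HFD response between genotypes was itself called for few members: 1 of 55 for PPARaLKO minus WT (10.4% of all probes), 3 for PPARaKO minus WT (14.3%) and 0 for PPARaKO minus PPARaLKO (3.42%). For that last comparison unadjusted p was under 0.05 for 3 members.

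**Figure D2:**
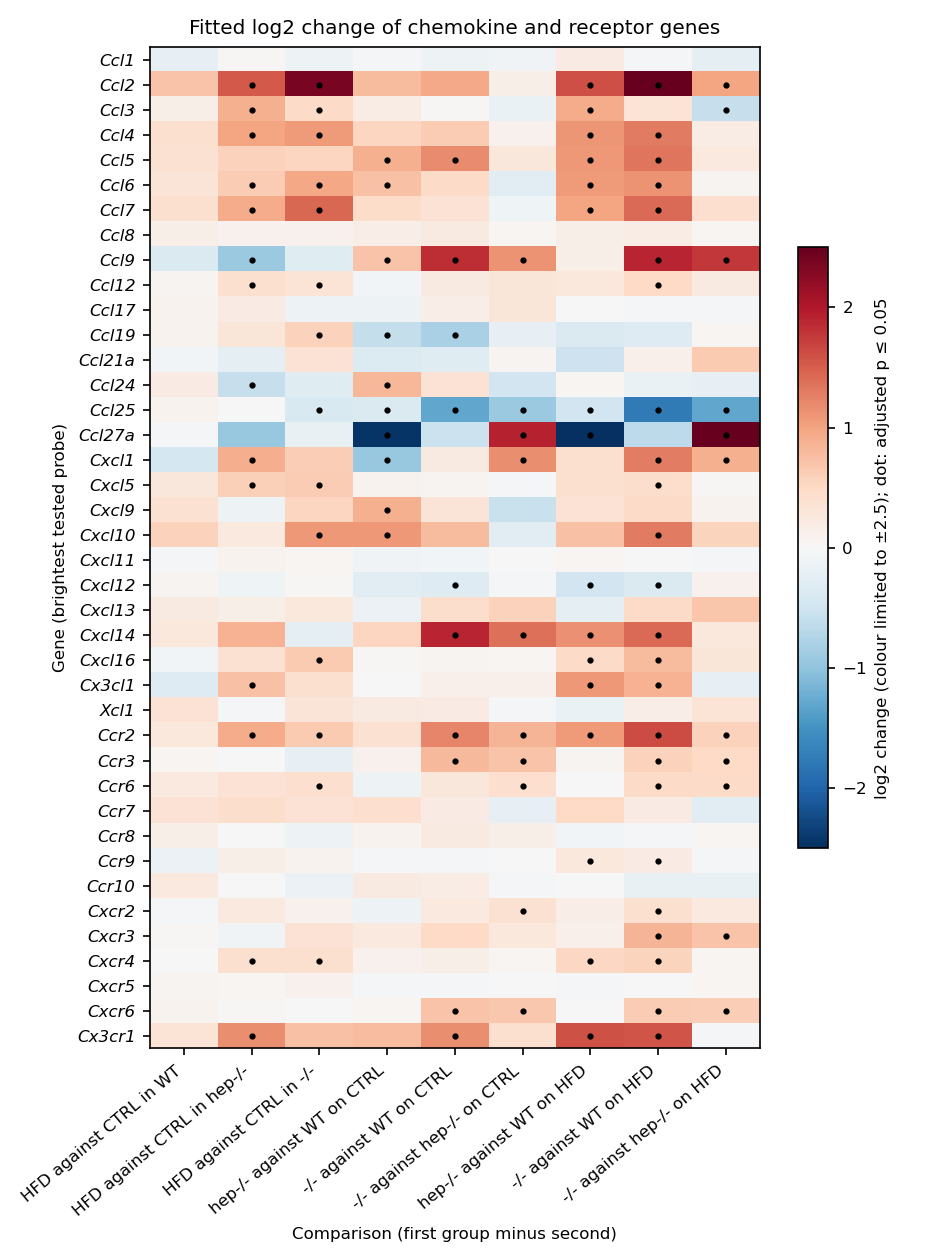
Fitted log2 change (colour, limited to ±2.5) of the brightest tested probe of 40 genes (rows, ligands above receptors) in the 9 pairwise comparisons (columns, first group minus second). Dots mark an adjusted p of at most 0.05. The WT diet column holds no dot, and the column of -/- against WT on the HFD holds the most.

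Ccl2, the main attractant of monocytes, lies beside Ccl7 and Ccl12 on chromosome 11, and all 3 ligands act on Ccr2. Ccl2 spanned 7.05 to 9.99 (median 7.47) in WT, 7.63 to 10.73 (median 8.69) in PPARaLKO and 6.85 to 10.94 (median 8.29) in PPARaKO livers under the CTRL diet. Ccl2 under the HFD spanned 7.02 to 11.04 (median 8.07) in WT, 8.92 to 10.64 (median 9.95) in PPARaLKO and 9.57 to 11.7 (median 11.21) in PPARaKO livers. The PPARaLKO and PPARaKO mice on the HFD all lay above the mean of their own CTRL group, while the groups still overlapped through the higher mice of each CTRL group. The HFD change of Ccl2 was 1.53 ± 0.38 (SE), adjusted p = 0.00358 in PPARaLKO and 2.38 ± 0.4 (SE), adjusted p = 3.1e-05 in PPARaKO mice, a 2.88-fold and a 5.22-fold rise. The plain differences in PPARaKO mice were 3.16 and 1.74 in the first and the second of 2 wash batches of the arrays. In WT mice it was 0.71 ± 0.45 (SE), adjusted p = 0.3. The difference of the responses was not called, at 0.82 ± 0.59 (SE), adjusted p = 0.386 for PPARaLKO minus WT and 1.68 ± 0.6 (SE), adjusted p = 0.0522 for PPARaKO minus WT. Ccl2 on the HFD was higher than in WT by 1.62 ± 0.39 (SE), adjusted p = 0.00182 in PPARaLKO and 2.62 ± 0.39 (SE), adjusted p = 4.1e-07 in PPARaKO mice, and PPARaKO exceeded PPARaLKO mice by 0.99 ± 0.37 (SE), adjusted p = 0.0346, a difference not called without array weights (0.92, adjusted p = 0.246).

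Ccl7 spanned 5.0 to 6.81 (median 5.38) in WT, 5.31 to 6.78 (median 6.15) in PPARaLKO and 5.01 to 7.33 (median 5.53) in PPARaKO livers under the CTRL diet. Ccl7 under the HFD spanned 5.28 to 7.6 (median 5.73) in WT, 6.24 to 7.61 (median 6.79) in PPARaLKO and 6.11 to 7.95 (median 7.34) in PPARaKO livers. Ccl7 thus sat near the background of the array in WT mice, where 2 CTRL and 3 HFD arrays were well above it, against 8 of 8 in both mutant HFD groups. It rose on the HFD by 0.93 ± 0.24 (SE), adjusted p = 0.00547 in PPARaLKO mice, where both groups passed the filter. In PPARaKO mice, of which only the HFD group passed, the fitted difference was 1.44, given as a description. The WT value was 0.4. Ccl12 stood above background on 6 of 8 arrays in both mutant HFD groups and on at most 3 of 8 elsewhere, so it entered the tests through the groups where it was high. Its fitted HFD differences, given as a description, were 0.4 in PPARaLKO and 0.34 in PPARaKO mice, and the plain values of PPARaLKO mice were -0.09 and 0.41 in the first and the second wash batch. Without array weights the HFD rise of Ccl2 was still called in PPARaKO mice (2.45, adjusted p = 0.00186), and in PPARaLKO mice neither Ccl2 (1.24, adjusted p = 0.214) nor Ccl7 was (0.91, adjusted p = 0.0989).

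**Figure D3:**
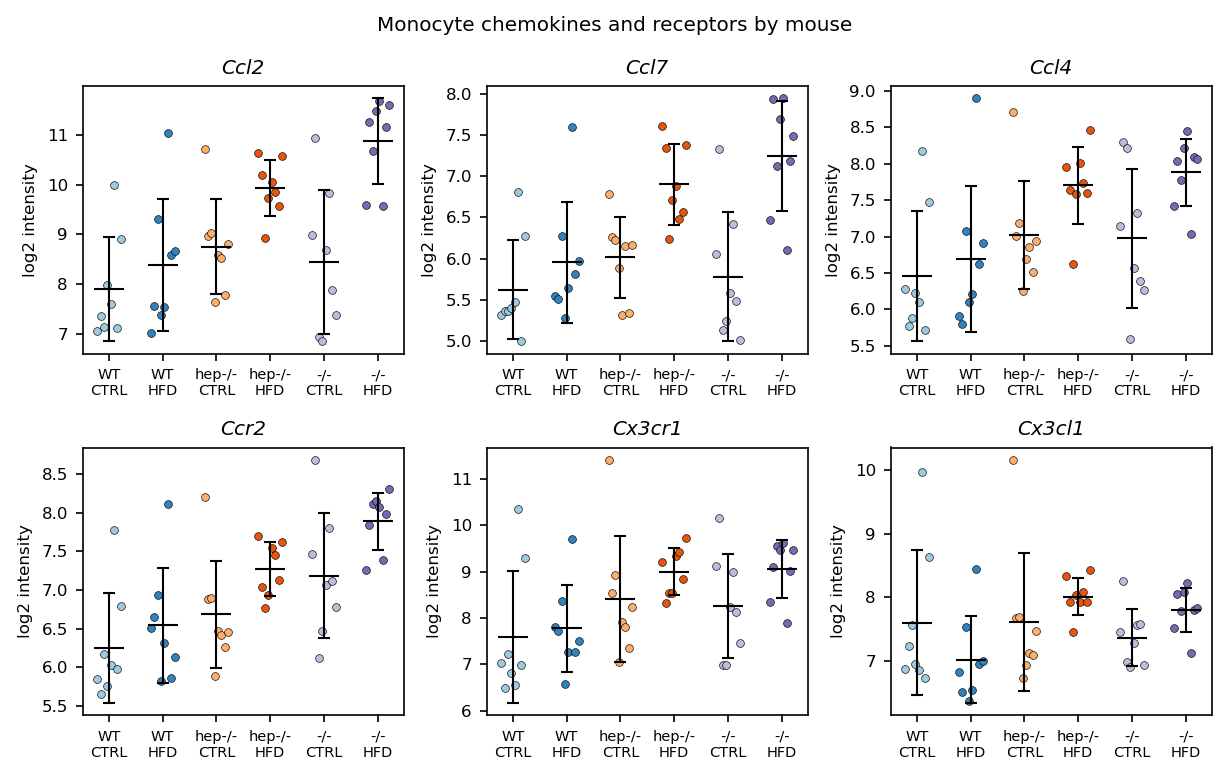
Log2 intensity (vertical axes) of 6 chemokine and receptor genes in each mouse (points), by group (horizontal axes, hep-/- and -/- standing for the Pparα genotypes), with mean and SD (bars). The 8 -/- HFD mice lie between 9.57 and 11.7 for Ccl2, and single CTRL and WT HFD mice reach similar levels.

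Ccl3 and Ccl4 are inflammatory chemokines made by macrophages and lymphocytes, and Ccl5 is made mainly by T and natural killer cells. Ccl3 spanned 5.25 to 6.71 (median 5.53) in WT, 5.16 to 7.36 (median 5.91) in PPARaLKO and 5.18 to 6.23 (median 5.58) in PPARaKO livers under the CTRL diet. Ccl3 under the HFD spanned 5.4 to 7.35 (median 5.52) in WT, 5.77 to 7.14 (median 6.67) in PPARaLKO and 5.53 to 6.34 (median 6.17) in PPARaKO livers. Only 2 WT CTRL arrays were well above background for Ccl3, against 8 in PPARaLKO HFD mice. Ccl3 rose on the HFD by 0.89 ± 0.17 (SE), adjusted p = 0.000174 in PPARaLKO mice, and on the HFD PPARaKO minus PPARaLKO mice gave -0.58 ± 0.16 (SE), adjusted p = 0.0047. The WT groups and the PPARaKO CTRL group failed the filter, so the HFD difference of 0.47 in PPARaKO mice and the difference of 0.93 of PPARaLKO from WT mice on the HFD are a description. Ccl4 spanned 5.72 to 8.18 (median 6.16) in WT, 6.25 to 8.71 (median 6.9) in PPARaLKO and 5.59 to 8.3 (median 6.86) in PPARaKO livers under the CTRL diet. Ccl4 under the HFD spanned 5.8 to 8.9 (median 6.42) in WT, 6.62 to 8.46 (median 7.68) in PPARaLKO and 7.03 to 8.45 (median 8.05) in PPARaKO livers. Its HFD rise was 0.98 ± 0.26 (SE), adjusted p = 0.00569 in PPARaLKO and 1.06 ± 0.27 (SE), adjusted p = 0.00327 in PPARaKO mice, and another probe gave 0.81 and 1.09, both called. Ccl4 on the HFD exceeded WT by 1.11 ± 0.27 (SE), adjusted p = 0.00164 in PPARaLKO and 1.29 ± 0.27 (SE), adjusted p = 8.52e-05 in PPARaKO mice. In WT mice the HFD changes were 0.14 ± 0.2 (SE), adjusted p = 0.692 for Ccl3 and 0.4 ± 0.3 (SE), adjusted p = 0.406 for Ccl4. Without array weights the HFD rise was not called for Ccl3 in PPARaLKO mice (0.66, adjusted p = 0.143) or for Ccl4 in PPARaLKO (0.7, adjusted p = 0.398) and PPARaKO mice (0.91, adjusted p = 0.111), nor was PPARaKO against PPARaLKO mice on the HFD for Ccl3 (-0.55, adjusted p = 0.12) or PPARaLKO against WT mice for Ccl4 (1.02, adjusted p = 0.0867). The higher HFD level of Ccl4 in PPARaKO than in WT mice was still called.

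Ccl5 spanned 9.31 to 11.51 (median 9.86) in WT, 10.67 to 12.84 (median 10.82) in PPARaLKO and 10.06 to 11.99 (median 10.87) in PPARaKO livers under the CTRL diet. Ccl5 under the HFD spanned 9.34 to 13.32 (median 10.17) in WT, 10.33 to 12.63 (median 11.25) in PPARaLKO and 10.59 to 12.3 (median 11.68) in PPARaKO livers. For Ccl5 no HFD response was called, with 0.57 ± 0.28 (SE), adjusted p = 0.144 in PPARaLKO and 0.53 ± 0.29 (SE), adjusted p = 0.189 in PPARaKO mice. The gene was higher than in WT in both mutant lines, by 0.89 (adjusted p = 0.0354) and 1.18 (adjusted p = 0.0049) on the CTRL diet and 1.09 and 1.33 on the HFD. Without array weights only the last of these was called, at 1.1, adjusted p = 0.0308. The plain HFD differences from WT in the first and the second wash batch were 0.45 and 1.33 in PPARaLKO and 0.64 and 1.55 in PPARaKO mice.

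Ccl6 and Ccl9 are mouse CC ligands of Ccr1, a receptor too dim to be tested here. Ccl6 spanned 9.31 to 10.83 (median 9.76) in WT, 10.36 to 11.27 (median 10.58) in PPARaLKO and 9.3 to 11.19 (median 10.02) in PPARaKO livers under the CTRL diet. Ccl6 under the HFD spanned 9.04 to 11.86 (median 10.16) in WT, 10.24 to 12.18 (median 10.96) in PPARaLKO and 10.58 to 11.76 (median 11.09) in PPARaKO livers. Ccl6 rose on the HFD by 0.64 ± 0.2 (SE), adjusted p = 0.0212 in PPARaLKO and 0.97 ± 0.21 (SE), adjusted p = 0.000855 in PPARaKO mice. It was higher than in WT by 1.06 and 1.13 on the HFD, and in PPARaLKO mice already on the CTRL diet, by 0.74 ± 0.23 (SE), adjusted p = 0.0169. Without array weights the 3 calls of PPARaLKO mice were lost (0.45, adjusted p = 0.49 on the HFD, 0.72, adjusted p = 0.0809 and 0.65, adjusted p = 0.156 against WT on the CTRL diet and HFD), and those of PPARaKO mice were kept. In the first and the second wash batch the plain HFD differences of PPARaLKO mice were 0.01 and 0.96, and the differences from WT on the HFD were 0.1 and 1.35 in PPARaLKO and 0.35 and 1.11 in PPARaKO mice. Ccl9 spanned 11.47 to 12.9 (median 12.06) in WT, 12.19 to 13.08 (median 12.7) in PPARaLKO and 13.24 to 14.36 (median 13.7) in PPARaKO livers under the CTRL diet. Ccl9 under the HFD spanned 11.36 to 12.23 (median 11.6) in WT, 11.12 to 12.38 (median 11.74) in PPARaLKO and 13.14 to 13.87 (median 13.4) in PPARaKO livers. All PPARaKO mice lay above all WT and all PPARaLKO mice on both diets. Ccl9 was higher in PPARaKO than in WT mice by 1.84 ± 0.18 (SE), adjusted p = 1.09e-11 on the CTRL diet and 1.9 ± 0.15 (SE), adjusted p = 2.59e-14 on the HFD, a 3.58-fold and 3.74-fold difference. In PPARaLKO mice it was higher than in WT on the CTRL diet, by 0.71 ± 0.17 (SE), adjusted p = 0.00146, and fell on the HFD by 0.93 ± 0.15 (SE), adjusted p = 1.63e-05. Every called Ccl9 change held without array weights and without any single array.

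Ccl24 attracts eosinophils through Ccr3. Ccl24 spanned 7.1 to 9.06 (median 8.57) in WT, 7.96 to 9.79 (median 9.37) in PPARaLKO and 8.42 to 9.55 (median 8.85) in PPARaKO livers under the CTRL diet. Ccl24 under the HFD spanned 8.26 to 9.1 (median 8.79) in WT, 8.58 to 9.22 (median 8.84) in PPARaLKO and 7.62 to 9.47 (median 8.7) in PPARaKO livers. Its level was higher in PPARaLKO than in WT mice on the CTRL diet, by 0.83 ± 0.2 (SE), adjusted p = 0.00166, and fell in PPARaLKO mice on the HFD, with a change of -0.58 ± 0.17 (SE), adjusted p = 0.0155. Without array weights the change was not called (-0.38, adjusted p = 0.447). The plain differences were 0.01 and -0.7 in the first and the second wash batch.

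Cxcl1 and Cxcl5 are the neutrophil attractants. Cxcl1 spanned 10.79 to 12.71 (median 10.93) in WT, 10.22 to 11.39 (median 10.69) in PPARaLKO and 10.6 to 12.79 (median 11.81) in PPARaKO livers under the CTRL diet. Cxcl1 under the HFD spanned 10.51 to 13.95 (median 11.21) in WT, 10.53 to 12.48 (median 11.49) in PPARaLKO and 11.99 to 13.13 (median 12.44) in PPARaKO livers. Cxcl1 rose on the HFD in PPARaLKO mice, by 0.91 ± 0.3 (SE), adjusted p = 0.027, and in PPARaKO mice the change was 0.61 ± 0.31 (SE), adjusted p = 0.151. On the HFD it was higher in PPARaKO than in WT mice by 1.28 ± 0.31 (SE), adjusted p = 0.000682. PPARaLKO mice on the CTRL diet were below WT, with a difference of -0.95 ± 0.34 (SE), adjusted p = 0.0367, and below PPARaKO mice, which exceeded them by 1.17 ± 0.32 (SE), adjusted p = 0.00505. Without array weights only this last Cxcl1 difference was called, at 1.05, adjusted p = 0.0403. Cxcl5 spanned 4.93 to 6.92 (median 5.19) in WT, 5.19 to 7.5 (median 5.37) in PPARaLKO and 4.96 to 6.25 (median 5.32) in PPARaKO livers under the CTRL diet. Cxcl5 under the HFD spanned 5.05 to 7.27 (median 5.54) in WT, 5.6 to 6.36 (median 6.06) in PPARaLKO and 5.53 to 6.5 (median 5.99) in PPARaKO livers. Cxcl5 was close to background, with 1 or 2 arrays of 8 above it in WT and CTRL groups and 6 of 8 in both mutant HFD groups. It thus entered the tests through those 2 groups, and its fitted HFD differences, 0.59 in PPARaLKO and 0.64 in PPARaKO mice, are a description. Neither was called without array weights (adjusted p = 0.595 and 0.159), and in PPARaLKO mice the plain values in the first and the second wash batch were -0.08 and 0.71.

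Cxcl9 and Cxcl10, which interferons induce, were called in few comparisons. Cxcl9 spanned 8.39 to 10.86 (median 9.22) in WT, 9.83 to 11.19 (median 10.15) in PPARaLKO and 8.04 to 10.96 (median 9.45) in PPARaKO livers under the CTRL diet. Cxcl9 under the HFD spanned 7.5 to 12.07 (median 9.67) in WT, 9.46 to 10.65 (median 9.86) in PPARaLKO and 9.0 to 10.71 (median 10.18) in PPARaKO livers. Cxcl9 was called once, higher in PPARaLKO than in WT mice on the CTRL diet, by 0.88 ± 0.32 (SE), adjusted p = 0.039. Cxcl10 spanned 8.03 to 10.66 (median 8.97) in WT, 9.58 to 11.28 (median 10.12) in PPARaLKO and 7.98 to 11.27 (median 9.38) in PPARaKO livers under the CTRL diet. Cxcl10 under the HFD spanned 7.37 to 11.36 (median 9.61) in WT, 9.67 to 10.8 (median 10.35) in PPARaLKO and 9.64 to 11.56 (median 10.94) in PPARaKO livers. For Cxcl10, whose promoter with the kappa B and interferon matches is shown above, the HFD change was 1.09 ± 0.33 (SE), adjusted p = 0.012 in PPARaKO and 0.24 ± 0.31 (SE), adjusted p = 0.635 in PPARaLKO mice. On the CTRL diet the gene was higher in PPARaLKO than in WT mice, by 1.08 ± 0.36 (SE), adjusted p = 0.0224, and on the HFD higher in PPARaKO than in WT mice, by 1.3 ± 0.32 (SE), adjusted p = 0.000873. The weaker Cxcl10 probe was called in no comparison and gave 0.22 for the HFD response of PPARaKO mice. The plain HFD differences of PPARaKO mice were 1.8 and 0.75 in the first and the second wash batch. Without array weights both calls in PPARaKO mice held, at 1.27, adjusted p = 0.0458 and 1.46, adjusted p = 0.00792, and the Cxcl9 and Cxcl10 calls on the CTRL diet did not.

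Cxcl16, the membrane-bound ligand of Cxcr6, and Cx3cl1, the ligand of Cx3cr1, each had a diet response called larger in a mutant line than in WT mice. Cxcl16 spanned 7.95 to 9.63 (median 8.35) in WT, 8.1 to 10.01 (median 8.43) in PPARaLKO and 7.76 to 9.16 (median 8.58) in PPARaKO livers under the CTRL diet. Cxcl16 under the HFD spanned 7.6 to 9.41 (median 8.4) in WT, 8.38 to 9.14 (median 8.74) in PPARaLKO and 8.7 to 9.28 (median 9.12) in PPARaKO livers. Cxcl16 rose on the HFD in PPARaKO mice by 0.66 ± 0.15 (SE), adjusted p = 0.00155, against 0.38 ± 0.15 (SE), adjusted p = 0.0582 in PPARaLKO and -0.07 ± 0.17 (SE), adjusted p = 0.835 in WT mice. The difference of responses was 0.73 ± 0.23 (SE), adjusted p = 0.0279 for PPARaKO minus WT, and another probe gave 0.79. That probe was called on the HFD in PPARaLKO mice too, at 0.52 ± 0.16 (SE), adjusted p = 0.0168. Without array weights the Cxcl16 rise of PPARaKO mice was not called (0.61, adjusted p = 0.0619). Cx3cl1 spanned 6.73 to 9.97 (median 7.1) in WT, 6.73 to 10.16 (median 7.3) in PPARaLKO and 6.91 to 8.25 (median 7.36) in PPARaKO livers under the CTRL diet. Cx3cl1 under the HFD spanned 6.38 to 8.44 (median 6.9) in WT, 7.45 to 8.43 (median 7.98) in PPARaLKO and 7.13 to 8.22 (median 7.82) in PPARaKO livers. Cx3cl1 rose on the HFD in PPARaLKO mice by 0.74 ± 0.22 (SE), adjusted p = 0.0131, while the WT change was -0.33 ± 0.26 (SE), adjusted p = 0.431, and the difference of the responses was 1.07 ± 0.34 (SE), adjusted p = 0.0354. On the HFD it was higher than in WT by 1.08 in PPARaLKO and 0.87 in PPARaKO mice. None of these Cx3cl1 calls held without array weights, where the HFD change of PPARaLKO mice was 0.36, adjusted p = 0.706 and the differences from WT were 0.97, adjusted p = 0.0824 in PPARaLKO and 0.78, adjusted p = 0.0971 in PPARaKO mice. The plain HFD differences of PPARaLKO mice were 0.04 and 0.6 in the first and the second wash batch. The weaker Cx3cl1 probe, called nowhere, gave -0.16 for the HFD response of PPARaLKO mice. Neither difference of responses, Cxcl16 or Cx3cl1, was called without array weights (0.75, adjusted p = 0.145 and 0.94, adjusted p = 0.429), and the one for Cx3cl1 was lost when any of 10 single arrays was left out, and the one for Cxcl16 with any of 4. Neither was called with no filter on dim probes, or with PPARaLKO CTRL replicate 1 and WT CTRL replicate 6 left out and no weights (0.59, adjusted p = 0.147 for Cxcl16 and 1.03, adjusted p = 0.0926 for Cx3cl1). The difference for Cx3cl1 was also not called with no wash term, slide or replicate number as a block, or the authors' values.

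Among the receptors, 3 of 14 tested genes rose on the HFD in each mutant line by the brightest probe and 0 in WT mice, where 9.46%, 12.2% and 8.60% of all probes were higher in PPARaLKO, PPARaKO and WT mice. The count of PPARaKO mice includes Cxcr4, whose CTRL group failed the filter. Ccr2 marks monocytes newly come from the blood, and Cx3cr1 marks patrolling monocytes and many tissue macrophages. Ccr2 spanned 5.65 to 7.78 (median 6.0) in WT, 5.88 to 8.2 (median 6.46) in PPARaLKO and 6.12 to 8.69 (median 7.08) in PPARaKO livers under the CTRL diet. Ccr2 under the HFD spanned 5.82 to 8.12 (median 6.41) in WT, 6.77 to 7.7 (median 7.29) in PPARaLKO and 7.26 to 8.31 (median 8.03) in PPARaKO livers. Ccr2 rose on the HFD by 0.92 ± 0.21 (SE), adjusted p = 0.00167 in PPARaLKO and 0.65 ± 0.22 (SE), adjusted p = 0.0246 in PPARaKO mice, beside 0.26 ± 0.25 (SE), adjusted p = 0.542 in WT mice. It was higher in PPARaKO than in WT mice on both diets, by 1.23 ± 0.25 (SE), adjusted p = 0.000117 on the CTRL diet and 1.63 ± 0.22 (SE), adjusted p = 3.03e-08 on the HFD, and in PPARaLKO than in WT mice on the HFD by 1.06. The plain CTRL differences from WT were 0.35 and 1.53 in the first and the second wash batch. Cx3cr1 spanned 6.49 to 10.36 (median 7.01) in WT, 7.06 to 11.42 (median 8.07) in PPARaLKO and 6.98 to 10.17 (median 8.18) in PPARaKO livers under the CTRL diet. Cx3cr1 under the HFD spanned 6.57 to 9.71 (median 7.62) in WT, 8.33 to 9.73 (median 9.03) in PPARaLKO and 7.89 to 9.61 (median 9.28) in PPARaKO livers. Cx3cr1 rose in PPARaLKO mice by 1.17 ± 0.33 (SE), adjusted p = 0.0105, and in PPARaKO mice the brighter probe gave 0.74 ± 0.35 (SE), adjusted p = 0.116 and the weaker probe 0.63 ± 0.21 (SE), adjusted p = 0.0212. On the HFD it was higher than in WT by 1.6 ± 0.35 (SE), adjusted p = 0.00052 in PPARaLKO and 1.58 ± 0.34 (SE), adjusted p = 0.000198 in PPARaKO mice. The plain Cx3cr1 HFD differences of PPARaLKO mice were 0.36 and 0.75 in the first and the second wash batch. No call of the brighter Cx3cr1 probe held without array weights, where the adjusted p of its 2 differences from WT on the HFD was 0.123 and 0.0523. Of the Ccr2 calls, those of PPARaKO against WT held, at 0.94, adjusted p = 0.0179 and 1.35, adjusted p = 0.000727. The HFD rises of Ccr2 did not (0.62, adjusted p = 0.327 in PPARaLKO and 0.7, adjusted p = 0.128 in PPARaKO mice), nor did PPARaLKO against WT mice on the HFD (0.74, adjusted p = 0.126).

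Cxcr4, the receptor of Cxcl12, was dim. Cxcr4 spanned 5.2 to 6.3 (median 5.56) in WT, 5.34 to 6.5 (median 5.68) in PPARaLKO and 5.1 to 6.17 (median 5.7) in PPARaKO livers under the CTRL diet. Cxcr4 under the HFD spanned 5.07 to 6.08 (median 5.57) in WT, 5.74 to 6.5 (median 5.9) in PPARaLKO and 5.53 to 6.45 (median 6.15) in PPARaKO livers. It rose on the HFD by 0.4 ± 0.12 (SE), adjusted p = 0.0168 in PPARaLKO mice, a call lost without array weights (0.28, adjusted p = 0.431). Both WT groups and the PPARaKO CTRL group failed the filter, so the HFD difference of 0.41 in PPARaKO mice and those of 0.51 and 0.56 of PPARaLKO and PPARaKO from WT mice on the HFD are a description.

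Cxcr6 on both diets, and Cxcr3 on the HFD, were higher in PPARaKO mice than in the other lines, with no called diet response. Cxcr3 and Cxcr6 are found on activated T cells and on natural killer and innate-like T cells of the liver, and Ccr3 on eosinophils. Cxcr3 spanned 5.96 to 7.47 (median 6.59) in WT, 6.39 to 8.34 (median 6.68) in PPARaLKO and 6.13 to 7.56 (median 7.12) in PPARaKO livers under the CTRL diet. Cxcr3 under the HFD spanned 6.24 to 7.62 (median 6.44) in WT, 6.44 to 6.95 (median 6.7) in PPARaLKO and 6.67 to 7.94 (median 7.39) in PPARaKO livers. On the HFD Cxcr3 exceeded WT by 0.85 ± 0.21 (SE), adjusted p = 0.000699 and PPARaLKO mice by 0.72 ± 0.19 (SE), adjusted p = 0.00314. Cxcr6 spanned 7.02 to 8.0 (median 7.31) in WT, 7.17 to 9.02 (median 7.32) in PPARaLKO and 7.2 to 8.44 (median 8.16) in PPARaKO livers under the CTRL diet. Cxcr6 under the HFD spanned 7.11 to 8.3 (median 7.35) in WT, 6.89 to 7.81 (median 7.44) in PPARaLKO and 7.51 to 8.52 (median 7.93) in PPARaKO livers. In PPARaKO mice Cxcr6 exceeded WT by 0.72 ± 0.17 (SE), adjusted p = 0.000933 on the CTRL diet and 0.63 ± 0.15 (SE), adjusted p = 0.000492 on the HFD, and PPARaLKO mice by 0.67 and 0.62. The excess over PPARaLKO mice on the CTRL diet was not called without array weights (0.46, adjusted p = 0.113), and its plain values in the first and the second wash batch were -0.02 and 0.76. Another Cxcr6 probe gave 0.87, 0.95, 0.76 and 0.91 for the same comparisons, all called.

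Ccr3 spanned 5.27 to 5.67 (median 5.45) in WT, 5.31 to 5.92 (median 5.52) in PPARaLKO and 5.84 to 6.64 (median 6.27) in PPARaKO livers under the CTRL diet. Ccr3 under the HFD spanned 5.31 to 5.91 (median 5.52) in WT, 5.26 to 5.96 (median 5.44) in PPARaLKO and 5.47 to 6.54 (median 6.14) in PPARaKO livers. All PPARaKO CTRL mice lay above all WT CTRL mice for Ccr3, and the fitted difference was 0.81. On the HFD it was 0.57, and PPARaKO minus PPARaLKO mice gave 0.71 and 0.49 on the CTRL diet and HFD. The gene was dim, above background on 6 and 5 of 8 PPARaKO arrays and on at most 3 of 8 in the other groups, so it entered the tests only through the PPARaKO mice where it was high, and these values are a description. The probes of Ccr9, Cxcr6, Ccr3 and Ccr2 lie in this order on chromosome 9, from chr9:123690334 to chr9:124023007 (mm9). In PPARaKO against WT mice on the CTRL diet, Ccr2 and Cxcr6 were called and Ccr9 was not, with -0.02 ± 0.1 (SE), adjusted p = 0.888. Smaller calls included Ccr6, higher in PPARaKO mice on the HFD than in WT by 0.48 ± 0.15 (SE), adjusted p = 0.00814 and than in PPARaLKO by 0.48 ± 0.14 (SE), adjusted p = 0.00733, with all 8 PPARaKO mice above all PPARaLKO mice. Other calls of Ccr6 or Ccr9 are not listed here, among them an HFD rise in PPARaKO mice. Ccr9, the receptor of Ccl25, was higher in PPARaKO than in WT mice on the HFD by 0.21 ± 0.09 (SE), adjusted p = 0.04. For Cxcr2, the neutrophil receptor, the same difference was 0.41, a description, since both WT groups failed the filter.

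Among the homeostatic ligands, Ccl27a of PPARaLKO mice and Ccl25 of PPARaKO mice lay apart from those of the other lines without overlap. Ccl27a is known as a skin chemokine that acts on Ccr10. Ccl27a spanned 10.77 to 11.78 (median 11.48) in WT, 7.46 to 10.55 (median 8.1) in PPARaLKO and 10.73 to 11.15 (median 10.96) in PPARaKO livers under the CTRL diet. Ccl27a under the HFD spanned 10.7 to 11.68 (median 11.42) in WT, 7.07 to 9.91 (median 7.52) in PPARaLKO and 10.68 to 11.04 (median 10.76) in PPARaKO livers. All PPARaLKO mice lay below all WT and all PPARaKO mice, and the PPARaLKO mice themselves spread widely. Of them, PPARaLKO CTRL replicates 4, 7 and 8 and PPARaLKO HFD replicate 6 lay at or above 9.91, and all other PPARaLKO mice at or below 8.14. The difference of PPARaLKO from WT was -2.46 ± 0.42 (SE), adjusted p = 2.29e-05 on the CTRL diet and -3.35 ± 0.38 (SE), adjusted p = 6.12e-09 on the HFD, a 5.49-fold and 10.2-fold lower level. Without PPARaLKO HFD replicate 6 the latter difference was -3.99. The overlapping probe was called in both comparisons too. The third probe, which lies apart at chr4:41720610-41720669, failed the filter in both PPARaLKO groups, and its differences of -1.82 and -2.24 are a description. PPARaKO mice differed from WT by -0.53 ± 0.44 (SE), adjusted p = 0.38 and -0.66 ± 0.38 (SE), adjusted p = 0.152, and no diet response of Ccl27a was called. The calls of the brightest Ccl27a probe held without array weights.

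**Figure D4:**
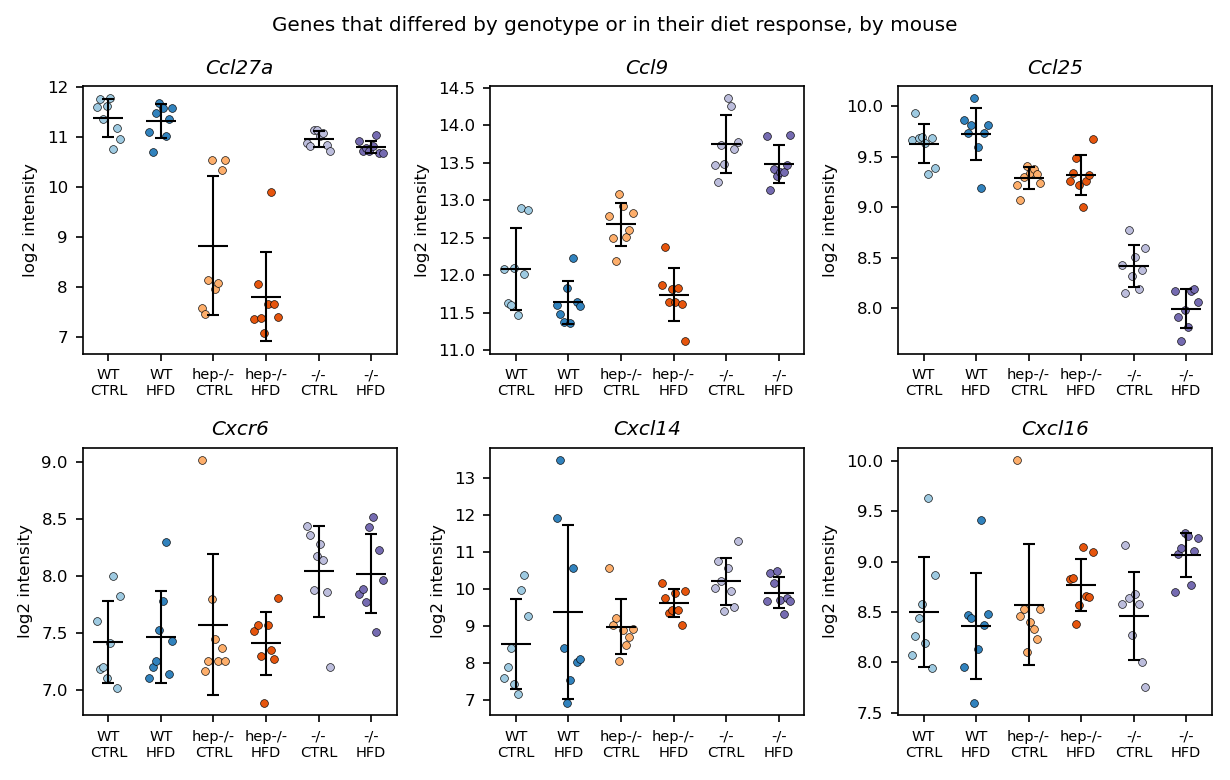
Log2 intensity (vertical axes) of Ccl27a, Ccl9, Ccl25, Cxcr6, Cxcl14 and Cxcl16 in each mouse (points), by group (horizontal axes, hep-/- and -/- standing for the Pparα genotypes), with mean and SD (bars). Ccl27a of the hep-/- mice spans 7.07 to 10.55, below all other mice, and Ccl9 of the -/- mice lies from 13.14 to 14.36, above all other mice.

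Ccl25 attracts Ccr9-bearing lymphocytes in gut and thymus. Ccl25 spanned 9.33 to 9.93 (median 9.68) in WT, 9.07 to 9.41 (median 9.32) in PPARaLKO and 8.15 to 8.77 (median 8.4) in PPARaKO livers under the CTRL diet. Ccl25 under the HFD spanned 9.19 to 10.08 (median 9.77) in WT, 9.0 to 9.68 (median 9.29) in PPARaLKO and 7.67 to 8.19 (median 8.02) in PPARaKO livers. All PPARaKO mice lay below all WT and all PPARaLKO mice on both diets. Ccl25 differed in PPARaKO from WT mice by -1.3 ± 0.1 (SE), adjusted p = 1.05e-14 on the CTRL diet and -1.77 ± 0.09 (SE), adjusted p = 6.95e-22 on the HFD, and in PPARaLKO from WT mice by -0.37 ± 0.09 (SE), adjusted p = 0.00287 and -0.47 ± 0.09 (SE), adjusted p = 6.42e-05. In PPARaKO mice alone of the 3 lines the HFD change was called, at -0.38 ± 0.09 (SE), adjusted p = 0.00136, and it differed from the WT response by -0.47 ± 0.13 (SE), adjusted p = 0.0131. The junction probe A_52_P326713 gave -0.47 and -0.74 for PPARaKO against WT. The probe A_55_P2027852, whose letters are shown above and which lies outside the others, was higher in PPARaKO than in WT mice, by 0.88 ± 0.12 (SE), adjusted p = 1.23e-07 and 0.78 ± 0.1 (SE), adjusted p = 3.39e-08. The lower Ccl25 of PPARaKO than of WT mice therefore holds for 2 of 3 tested probes. Against PPARaLKO mice 2 of 3 were called lower on the HFD, and 1 of 3 on the CTRL diet.

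Ccl19, which guides dendritic cells and T cells through Ccr7, was lower in both mutant lines on the CTRL diet. Ccl19 spanned 7.67 to 9.4 (median 8.11) in WT, 6.82 to 8.44 (median 7.71) in PPARaLKO and 6.55 to 7.69 (median 7.35) in PPARaKO livers under the CTRL diet. Ccl19 under the HFD spanned 7.4 to 9.08 (median 8.27) in WT, 7.26 to 8.35 (median 7.67) in PPARaLKO and 7.4 to 8.2 (median 7.9) in PPARaKO livers. The differences of Ccl19 from WT were -0.6 ± 0.2 (SE), adjusted p = 0.0218 in PPARaLKO and -0.81 ± 0.21 (SE), adjusted p = 0.00183 in PPARaKO mice, and in PPARaKO mice it rose on the HFD by 0.57 ± 0.18 (SE), adjusted p = 0.0176. Without array weights only the difference of PPARaKO from WT was called, the others being -0.61, adjusted p = 0.0501 and 0.61, adjusted p = 0.0588. Cxcl14, made by epithelia and in metabolic tissues, was higher in PPARaKO mice on the CTRL diet. Cxcl14 spanned 7.16 to 10.36 (median 8.14) in WT, 8.03 to 10.57 (median 8.9) in PPARaLKO and 9.39 to 11.29 (median 10.12) in PPARaKO livers under the CTRL diet. Cxcl14 under the HFD spanned 6.91 to 13.49 (median 8.25) in WT, 9.03 to 10.14 (median 9.6) in PPARaLKO and 9.32 to 10.47 (median 9.72) in PPARaKO livers. On the CTRL diet Cxcl14 of PPARaKO mice exceeded WT by 1.91 ± 0.47 (SE), adjusted p = 0.00136 and PPARaLKO mice by 1.37, the latter not called without array weights (1.22, adjusted p = 0.141). On the HFD the fitted differences from WT were 1.14 ± 0.41 (SE), adjusted p = 0.0352 in PPARaLKO and 1.41 ± 0.41 (SE), adjusted p = 0.00425 in PPARaKO mice, but the WT HFD mice spread widely and these values rest on the weights, being 0.24, adjusted p = 0.846 and 0.53, adjusted p = 0.514 without them. In the first and the second wash batch they were -0.17 and 0.71 in PPARaLKO and 0.35 and 0.71 in PPARaKO mice. Cxcl12, the ligand of Cxcr4, whose probe was the brightest here apart from that of Cxcl11, differed from WT by -0.47 ± 0.11 (SE), adjusted p = 0.00134 in PPARaLKO and -0.36 ± 0.11 (SE), adjusted p = 0.0065 in PPARaKO mice on the HFD. It was also called lower in PPARaKO than in WT mice on the CTRL diet, at -0.32. Its other probe was called nowhere.

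By count, the genotype comparisons called more members on the HFD than on the CTRL diet, and they also called more of all probes. On the CTRL diet, 6 member probes were higher and 7 lower in PPARaLKO than in WT mice, where 11.3% and 13.4% of all probes were. In PPARaKO against WT mice 9 were higher and 4 lower (15.6% and 18.7% of all probes), and in PPARaKO against PPARaLKO mice 13 were higher and 1 lower (12.2% and 13.0%). On the HFD, 16 were higher and 6 lower in PPARaLKO than in WT mice (13.3% and 13.4%). In PPARaKO against WT mice 28 were higher and 3 lower (21.8% and 24.0%), and in PPARaKO against PPARaLKO mice 13 were higher and 3 lower (15.2% and 15.4%). The comparisons within a diet share groups, so the counts are not independent. The receptors with the brightest probe called were 10 of 14 higher and 0 lower in PPARaKO against WT mice on the HFD, and the ligands 13 of 27 higher and 2 lower. The 10 receptors include Ccr3, Cxcr2 and Cxcr4, which failed the filter in WT mice. Without array weights 21 probes were called there in place of 31, and 8 in place of 22 for PPARaLKO against WT mice on the HFD.

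Genes upstream and downstream of the chemokines were counted in the same way, beside the shares of all probes that the HFD raised and lowered, 8.60% and 10.1% in WT, 9.46% and 10.8% in PPARaLKO and 12.2% and 12.6% in PPARaKO mice. Of 19 tested genes that induce inflammatory chemokines or relay their signals, the HFD moved 1 up and 2 down in WT, 9 up and 2 down in PPARaLKO and 13 up and 1 down in PPARaKO mice, with median changes of 0.06, 0.2 and 0.43. In PPARaKO mice Tlr2, a receptor for microbial lipoproteins, rose by 1.62, adjusted p = 1.72e-05, the NF-kappa B subunit Relb by 1.31, adjusted p = 4.73e-05, and the NF-kappa B inhibitor Tnfaip3 by 1.24, adjusted p = 0.000198. Il1rn, the interleukin-1 receptor antagonist, rose in all 3 lines, by 0.86, 0.86 and 1.07. Of 17 genes that carry chemokine receptor signals in leukocytes, the HFD moved 2 up and 1 down in WT, 7 up and 0 down in PPARaLKO and 10 up and 0 down in PPARaKO mice, and 16 were higher in PPARaKO than in WT mice on the HFD, where 21.8% of all probes were, among them the GTPase Rac2 (1.65, adjusted p = 4.74e-09). Of 12 chemokine-like genes and atypical receptors outside the name rule, the HFD moved 1 up and 1 down in WT, 3 up and 0 down in PPARaLKO and 5 up and 1 down in PPARaKO mice. Pf4, the platelet chemokine Cxcl4, rose by 0.94 and 0.64 in the mutant lines, and Ackr1, which binds many chemokines without signalling, by 0.77 in PPARaKO mice. The median change over all probes lay between -0.03 and 0.01 in every comparison.

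Markers of other liver cells were set beside the chemokines. In bulk liver, fewer cells of a type and less RNA per cell cannot be told apart. The summed level of 9 markers of recruited or lipid-associated macrophages ran from 13.36 to 15.77 (median 13.78) in WT CTRL, 13.01 to 15.58 (median 14.1) in WT HFD, 13.93 to 16.73 (median 14.28) in PPARaLKO CTRL and 14.53 to 15.42 (median 15.06) in PPARaLKO HFD mice. In the PPARaKO group fed CTRL it was 13.73 to 16.12 (median 14.25), and in the HFD group 14.65 to 16.05 (median 15.53). The HFD moved 0 up and 1 down of these in WT, 6 up and 0 down in PPARaLKO and 8 up and 0 down in PPARaKO mice, with Gpnmb at 2.99 and Trem2 at 1.81 in PPARaLKO mice. The 8 Kupffer cell and macrophage markers summed to medians of 14.67 in WT CTRL, 14.77 in WT HFD, 15.26 in PPARaLKO CTRL, 15.53 in PPARaLKO HFD, 15.15 in PPARaKO CTRL and 15.79 in PPARaKO HFD mice, with 0 up and 0 down, 2 up and 0 down and 6 up and 0 down on the HFD in the 3 lines. Each of these macrophage markers was above background on at least 1 array of every group.

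Neutrophil markers, of which 9 were tested, gave 0 up and 0 down in WT, 1 up and 0 down in PPARaLKO and 3 up and 0 down in PPARaKO mice on the HFD, and summed to 11.56 to 13.01 (median 12.23) in PPARaKO HFD against 10.61 to 15.23 (median 10.95) in WT HFD mice. In PPARaKO against WT mice on the HFD 6 were up and 1 down (21.8% and 24.0% of all probes), with a median change of 1.17. For T and NK cells, 13 markers gave 0 up and 0 down, 0 up and 1 down and 0 up and 1 down on the HFD, and 7 up and 0 down in PPARaKO against WT mice on the HFD, where 21.8% of all probes were higher, with Cd8b1 at 1.2, adjusted p = 2.87e-05. The median change of these 13 markers in PPARaKO against WT mice on the HFD was 0.41. On the CTRL diet 5 were up and 1 down (15.6% and 18.7% of all probes), with a median change of 0.29. Their summed level, which follows the brightest markers most, ran the other way. Set beside Cxcr3 and Cxcr6, it had medians of 13.44 in PPARaKO HFD and 13.64 in WT HFD mice, and 13.4 and 13.66 in the CTRL groups. Stellate cell markers gave 0 up and 0 down, 3 up and 0 down and 5 up and 0 down of 6 on the HFD in the 3 lines, sinusoidal endothelium 0 up and 0 down, 2 up and 0 down and 2 up and 0 down of 7. Dendritic cell markers gave 0 up and 0 down, 1 up and 0 down and 1 up and 0 down of 5, B cell markers 0 up and 0 down in each line of 3, and bile duct markers 0 up and 0 down, 1 up and 0 down and 0 up and 0 down of 4. Hepatocyte markers gave 0 up and 2 down, 0 up and 1 down and 2 up and 2 down of 8. The part of these cells in the chemokine results was not tested.

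**Figure D5:**
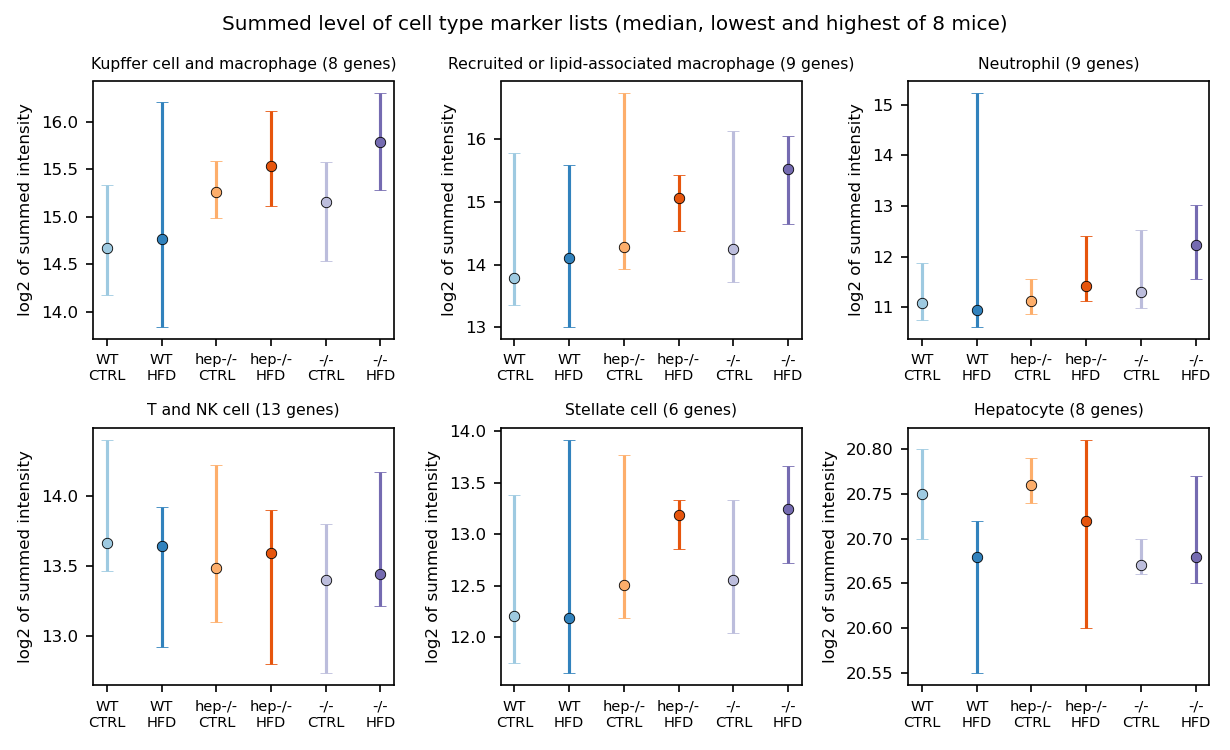
Summed intensity of 6 cell type marker lists (vertical axes, log2), as the median (point) and the lowest and highest of 8 mice (bars), by group (horizontal axes, hep-/- and -/- standing for the Pparα genotypes). The recruited or lipid-associated macrophage list has medians of 15.06 in hep-/- HFD and 15.53 in -/- HFD mice, against 14.1 in WT HFD mice.

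Single mice carried high levels of several members at once. PPARaLKO CTRL replicate 1 was the highest of its group for Ccl2 (10.73), Ccl4 (8.71), Ccl7 (6.78), Ccr2 (8.2), Cx3cr1 (11.42) and Cx3cl1 (10.16), above the medians of the HFD mice of its line for all of these but Ccl7. WT CTRL replicate 6 was the highest of its group for the same 6 genes, with Ccl2 at 9.99 and Cx3cr1 at 10.36, and WT CTRL replicate 8 was second for each. WT HFD replicate 6 was the highest of its group for all 6, with Ccl2 at 11.04, and so was PPARaKO CTRL replicate 2, with Ccl2 at 10.94. The first wash batch held PPARaLKO CTRL replicate 1, WT CTRL replicate 6 and WT HFD replicate 6. The second held PPARaKO CTRL replicate 2. Plain differences within a batch count these mice fully. With PPARaLKO CTRL replicate 1 and WT CTRL replicate 6 left out under the same weights, 19 member probes were called on the HFD in PPARaLKO and 19 in PPARaKO mice, and 0 in WT mice.

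Of the called changes of genes with values by mouse, 74 of 99 held without any single array. The 99 include those of Cxcl5 and Ccr3, and those of Ccl3, Ccl7 and Cxcr4 against a group that failed the filter. Part or all of these differences was built into the choice of the probe, so their calls, held or lost, are a description. Ccl19 lost its call for the HFD in PPARaKO without PPARaKO CTRL replicate 4 or PPARaKO CTRL replicate 8 (adjusted p up to 0.0593). Ccl19 lost its call for PPARaLKO against WT on CTRL without PPARaLKO CTRL replicate 6 (adjusted p up to 0.0779). Ccl6 lost its call for the HFD in PPARaLKO without PPARaLKO CTRL replicate 6 or PPARaLKO HFD replicate 5 (adjusted p up to 0.103). Ccl6 lost its call for PPARaLKO against WT on CTRL without WT CTRL replicate 1 or WT CTRL replicate 5 (adjusted p up to 0.0761). Ccr2 lost its call for the HFD in PPARaKO without PPARaKO CTRL replicate 4 or PPARaKO CTRL replicate 8 or PPARaKO HFD replicate 3 (adjusted p up to 0.0799). Cx3cl1 lost its call for the HFD in PPARaLKO without PPARaLKO CTRL replicate 4 (adjusted p up to 0.0721). Cx3cr1 lost its call for the HFD in PPARaLKO without PPARaLKO CTRL replicate 4 (adjusted p up to 0.0553). Cxcl1 lost its call for the HFD in PPARaLKO without PPARaLKO CTRL replicate 7 or PPARaLKO HFD replicate 1 or PPARaLKO HFD replicate 5 (adjusted p up to 0.0864). Cxcl1 lost its call for PPARaKO against PPARaLKO on HFD without PPARaLKO HFD replicate 6 or PPARaLKO HFD replicate 7 (adjusted p up to 0.103). Cxcl10 lost its call for PPARaLKO against WT on CTRL without WT CTRL replicate 4 or WT CTRL replicate 7 (adjusted p up to 0.0605). Cxcl16 lost its call for PPARaLKO against WT on HFD without WT HFD replicate 4 or PPARaLKO HFD replicate 5 (adjusted p up to 0.0733). Cxcl5 lost its call for the HFD in PPARaLKO without PPARaLKO HFD replicate 5 (adjusted p up to 0.0503). Cxcr4 lost its call for the HFD in PPARaKO without PPARaKO HFD replicate 7 or PPARaKO HFD replicate 8 (adjusted p up to 0.0555). Cxcr4 lost its call for the HFD in PPARaLKO without PPARaLKO HFD replicate 5 (adjusted p up to 0.0643). More single arrays each ended the calls of Ccl2 for PPARaKO against PPARaLKO on HFD (9 arrays, adjusted p up to 0.125), Ccl3 for the HFD in PPARaKO (9 arrays, adjusted p up to 0.0925), and of Ccl5 for PPARaLKO against WT on CTRL (8 arrays, adjusted p up to 0.0921). The same held for Ccr2 for PPARaKO against PPARaLKO on HFD (5 arrays, adjusted p up to 0.0639), Cx3cl1 for the difference of HFD response, PPARaLKO minus WT (10 arrays, adjusted p up to 0.0907), and for Cx3cr1 for PPARaKO against WT on CTRL (5 arrays, adjusted p up to 0.0682). The same held for Cxcl1 for PPARaLKO against WT on CTRL (6 arrays, adjusted p up to 0.153), Cxcl14 for PPARaLKO against WT on HFD (8 arrays, adjusted p up to 0.121), and for Cxcl16 for the difference of HFD response, PPARaKO minus WT (4 arrays, adjusted p up to 0.0669). The same held for Cxcl5 for PPARaKO against WT on HFD (22 arrays, adjusted p up to 0.141), and for Cxcl9 for PPARaLKO against WT on CTRL (8 arrays, adjusted p up to 0.105).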

How the data were processed

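Liver RNA of 48 mice was hybridised to 1-colour Agilent arrays. The authors deposited Feature Extraction 10.10.1.1 output for each array. The median spot intensities, taken for all main values, are, per the file headers, neither background subtracted nor normalized. The mean, background and processed intensities deposited in the same files served in alternatives, as did the authors' log2 table of 32816 probes, which they had filtered, corrected for the wash bath and quantile normalized.

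Of 59305 spots, those marked as outliers were left out, log2 intensities were averaged per probe, and a probe entered the tests if 4 or more of the 8 arrays in any group had it well above background. Values were quantile normalized. limma 3.58.1 (R 4.3.3) was run with group means, a wash batch term and array weights, with Benjamini-Hochberg adjustment within each comparison over all 33323 tested probes. Array weights follow the spread of all probes, and a plain difference of means can differ from the fitted one. Each gene is represented by its brightest tested probe. Values by mouse are given for genes whose brightest probe was called in a pairwise comparison with a change of at least 0.5. The fit was tested on simulated data. Members, gene lists and cell type markers (hepatocyte, Kupffer cell and macrophage, recruited or lipid-associated macrophage, neutrophil, T and NK cell, B cell, dendritic cell, sinusoidal endothelium, stellate cell, bile duct cell, inducers, receptor signalling, related genes outside the rule) were chosen with earlier results of these data known. All 55 gene names matched RefSeq symbols, and coordinates of probes were read from the array files (mm9). The labels do not say whether mice shared cages or litters. Alternatives were processed signals, normexp, no filter on dim probes, no array weights, no wash term, slide or replicate number as a block, the authors' log2 values, each array left out and, chosen after seeing the data, the 2 arrays of lowest weight left out with and without weights. The values of 1 member gene are not reported here, and it stays in the counts.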

Additional observations from a re-analysis of the deposited data

Results flagged for a closer look

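Among 150 combinations of a gene named with its values by mouse and a group, 20 held 1 mouse whose gap to the nearest of its group, over the range of the group, was above the critical value of Dixon's test. Chance gives about 1 in 20 such groups, and the genes are not independent. Apart from its group stood PPARaLKO CTRL replicate 1 for Ccl2 (10.73, the others 7.63 to 9.02), Ccl24 (7.96, the others 9.24 to 9.79), Ccl4 (8.71, the others 6.25 to 7.18) and Ccl5 (12.84, the others 10.67 to 10.87). So did PPARaLKO CTRL replicate 1 for Ccr2 (8.2, the others 5.88 to 6.89), Cx3cl1 (10.16, the others 6.73 to 7.7), Cx3cr1 (11.42, the others 7.06 to 8.93) and Cxcl10 (11.28, the others 9.58 to 10.23). So did PPARaLKO CTRL replicate 1 for Cxcl14 (10.57, the others 8.03 to 9.21), Cxcl16 (10.01, the others 8.1 to 8.53), Cxcl5 (7.5, the others 5.19 to 5.51) and Cxcr6 (9.02, the others 7.17 to 7.8). Apart from its group stood WT HFD replicate 6 for Ccl3 (7.35, the others 5.4 to 6.11), Ccl4 (8.9, the others 5.8 to 7.07), Ccl5 (13.32, the others 9.34 to 10.51) and Ccl7 (7.6, the others 5.28 to 6.28). So did WT HFD replicate 6 for Cxcl5 (7.27, the others 5.05 to 5.85). Apart from its group stood WT CTRL replicate 6 for Ccl24 (7.1, the others 8.24 to 9.06). Apart from its group stood PPARaLKO HFD replicate 6 for Ccl27a (9.91, the others 7.07 to 8.05). Apart from its group stood PPARaKO CTRL replicate 8 for Cxcr6 (7.2, the others 7.86 to 8.44). The difference in HFD response from WT was called by limma for Cx3cl1 in PPARaLKO mice (1.07), and in PPARaKO mice for Ccl25 (-0.47) and for both Cxcl16 probes (0.79 and 0.73).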

How the results depend on the processing

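Of 99 called changes of the genes with values by mouse, 48 were called under all 10 other settings and 74 without any single array. These counts include the Cxcl5 and Ccr3 changes, and those of Ccl3, Ccl7 and Cxcr4 against a group that failed the filter. For those, holding a call shows no robustness. Without array weights 51 were lost, without the filter on dim probes 26, and with the 2 arrays of lowest weight left out and no weights 27. Member probes called without array weights were 1 for the HFD in PPARaLKO and 8 in PPARaKO mice, 7 for PPARaLKO against WT and 8 for PPARaKO against PPARaLKO mice on CTRL, 8 for PPARaLKO against WT mice on HFD, and 0 and 1 for the differences of response of PPARaLKO and PPARaKO from WT mice. With no filter they were 7 (HFD in PPARaLKO), 8 (PPARaLKO against WT on CTRL), 0 and 1 (both differences of response from WT). With no wash term they were 11 (HFD in PPARaLKO), 0 (PPARaLKO minus WT) and 1 (PPARaKO minus PPARaLKO). With the 2 arrays left out and no weights they were 9 (HFD in PPARaLKO), 8 (PPARaLKO against WT on CTRL), 0 and 1 (both differences of response from WT). The count for PPARaLKO minus WT was 3 with processed signals and with normexp, 4 with the 2 arrays left out, and 0 with slide or replicate number as a block and with the authors' values.

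Leaving out each array in turn gave 0 to 0 calls for the HFD in WT, 12 to 21 in PPARaLKO and 12 to 20 in PPARaKO mice. It gave 10 to 14, 11 to 15 and 12 to 15 for PPARaLKO against WT, PPARaKO against WT and PPARaKO against PPARaLKO mice on CTRL, and 20 to 28, 28 to 33 and 13 to 18 on HFD. The differences of response gave 0 to 4 (PPARaLKO minus WT), 2 to 5 (PPARaKO minus WT) and 0 to 1 (PPARaKO minus PPARaLKO). Within the first wash batch 7 of the 96 pairwise changes, and also that of Ccl12 (-0.09, HFD in PPARaLKO), turned sign: Cxcl14 (-0.17, PPARaLKO against WT on HFD), Ccr2 (-0.09) and Cxcr6 (-0.02, both PPARaKO against PPARaLKO on CTRL), Ccl24 (0.01, HFD in PPARaLKO), Cxcl5 (-0.08, HFD in PPARaLKO, and -0.21, PPARaKO against WT on HFD) and Cx3cr1 (-0.14, PPARaKO against WT on CTRL). Another 7 kept their sign and moved by more than the spread between mice: Ccl6 (0.01, HFD in PPARaLKO, and 0.1 and 0.35, PPARaLKO and PPARaKO against WT on HFD), Ccr2 (0.35) and Ccl19 (-1.35, both PPARaKO against WT on CTRL), Ccl9 (1.52, PPARaKO against WT on HFD) and Ccl27a (3.46, PPARaKO against PPARaLKO on HFD). Within the second batch none of the 96 did either. The cause was not tested. At most 4 of 8 same-numbered pairs per comparison correlated above 0.1, with correlations from -0.446 to 0.694. Pairs of unlike number were not compared, so whether replicate numbers pair the mice was not tested. With a replicate block 17 and 19 member probes were called for the HFD in PPARaLKO and PPARaKO mice, and 1 for PPARaKO minus PPARaLKO. The lowest intensities limit Ccl3, Ccl7, Ccl12, Cxcl5, Cxcr2, Cxcr4 and Ccr3 among others, which were near background in most mice of at least 1 group.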
